A study of Sus scrofa with 12 samples.

Results

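Transcripts of genes that mark the endothelium of blood vessels and of the liver sinusoids were compared between Jinhua (JH) and Landrace (LD) pigs. The 10 genes, PECAM1, VWF, CDH5, KDR, FLT1, TEK, STAB1, STAB2, LYVE1 and CLEC4G, were taken by symbol from 31692 gene symbols in the mRNA tables. CDH5, which encodes the cadherin of endothelial junctions, had no row under this symbol and was not analysed here, so 9 genes were followed. All 9 passed the filter on low values, which asked for 0.5 RPKM or more in 3 or more libraries. JH is a slow-growing, fat-type breed from China and LD a fast-growing, lean breed. Each breed was represented by the livers of 3 males, 70 days old and not castrated, and each pig gave 1 mRNA library and 1 small RNA library. RPKM scales the reads of a gene to its length and to the reads of the library, so that levels can be set side by side between genes.

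Endothelial cells line all blood vessels and hold together through adhesion proteins at their junctions. In the liver, most of them line the sinusoids, capillaries with open pores and without a complete basement membrane, where they clear proteins and matrix fragments from the blood through scavenger receptors. Growth and maintenance of this lining depend on vascular endothelial growth factor (VEGF), which acts through the receptors encoded by KDR and FLT1, and on the angiopoietins, which act through the receptor encoded by TEK.

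The mRNA libraries held between 5744909 reads (JH1) and 7914514 reads (LD3) behind the RPKM values. The 9 genes rested on 21 reads at the lowest, for VWF in JH2, and on 1295 reads at the highest, for CLEC4G in LD2. These read numbers are not independent molecules and describe counting error only. ALB, the albumin gene of hepatocytes, which are the main cells of the labelled tissue, stood at 29866 ± 3267 RPKM (SD, n = 3) in JH and at 47923 ± 8861 RPKM (SD, n = 3) in LD. APOA1, another gene of hepatocytes, lay on the opposite side, at 16218 ± 5989 RPKM (SD, n = 3) in JH and 8376 ± 1511 RPKM (SD, n = 3) in LD. Of the hepatocyte genes 0 of 7 was called. Their median log2 fold change, JH over LD, was -0.20 (-0.36 to -0.11 over the alternatives). This range leaves out the alternatives on reads recovered from the RPKM, which did not cover all 7 genes. In limma, 3 of 7 were lower in JH and 1 was higher at an unadjusted p below 0.05. The shares of all tested genes were 9.51% lower and 8.34% higher. APOB, which hepatocytes also use, was listed at 0 in all 6 libraries, so a listed 0 in these tables is given only as such. In whole liver, fewer endothelial cells and less RNA per endothelial cell cannot be told apart.

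CLEC4G, a C-type lectin receptor of sinusoidal endothelium, had the highest level of the 9 genes, with a mean of 165 RPKM over the 6 libraries. Next came PECAM1 with a mean of 21.7 RPKM, LYVE1 with 16.3 RPKM, KDR with 14.3 RPKM and STAB1 with 13.1 RPKM. Lower mean levels were found for STAB2 (9.71 RPKM), TEK (6.55 RPKM), FLT1 (3.37 RPKM) and VWF (1.08 RPKM). Neighbours in this order whose ranges over the libraries did not overlap were CLEC4G and PECAM1, TEK and FLT1, and FLT1 and VWF. All other neighbours overlapped. This order pools the breeds, and 3 neighbouring pairs had another order of means in JH than in LD. KDR was below STAB1 in 3 of 3 JH libraries and above it in 3 of 3 LD libraries. PECAM1 and LYVE1 had means of 15.7 and 16.0 RPKM in JH and of 27.6 and 16.7 RPKM in LD, and LYVE1 was above KDR in 3 of 3 JH libraries and in 1 of 3 LD libraries.

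None of the 9 genes was called between the breeds. The call, a limma adjusted p below 0.05 together with a log2 fold change beyond 1 in either direction, was met by 0 of 9 genes and by 2.39% of the 12991 tested genes. At an unadjusted p below 0.05, 2 of 9 genes, PECAM1 and KDR, were lower in JH and 0 were higher, beside 9.51% of all tested genes lower and 8.34% higher. The voom method of limma on the recovered reads also called 0 of 9. The JH values all lay below the LD values in 3 of 9 genes, PECAM1, KDR and VWF, and in 12.5% of all tested genes. In 0 of 9 genes did the JH values all lie above the LD values, which held for 10.8% of all tested genes. JH over LD gave a log2 fold change below 0 in 8 of 9 genes, beside 47.1% of all tested genes, with a median of -0.29 over the 9 genes and 0.04 over all tested genes. The median of the 9 genes was -0.56 without JH1 and -0.14 without JH2 or LD2, and that of all tested genes ranged from -0.06 to 0.15 over the alternatives. Fold changes are on the scale of log2(RPKM + 0.1), which understates differences of low genes. Of the 310 genes called in all, 139 stayed called without JH1, 135 without JH2, 237 without JH3, 70 without LD1, 102 without LD2 and 131 without LD3, and 0 of the 9 genes was called in any of these fits.

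**Figure D1:**
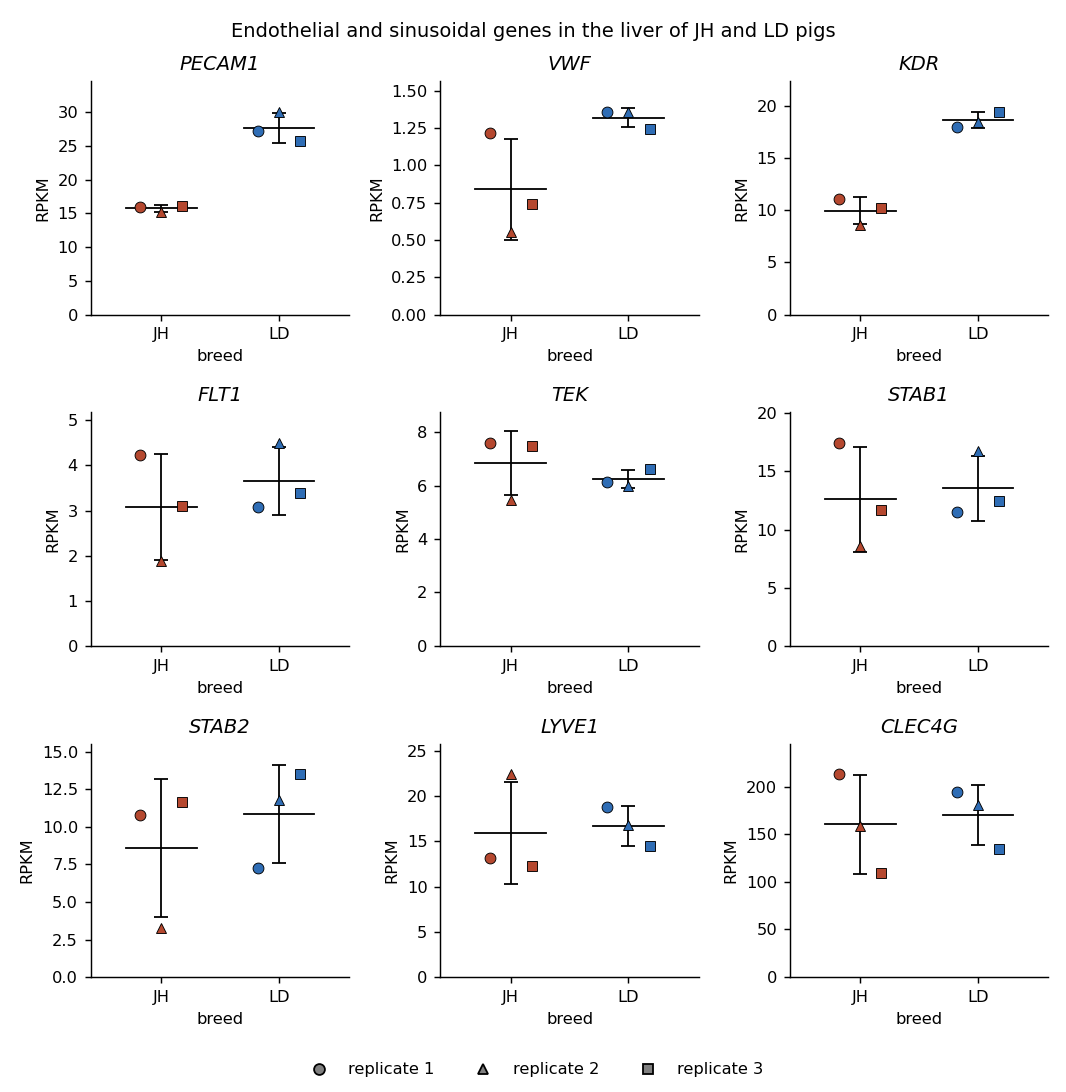
RPKM of each of the 9 genes (y axis, from 0, with its own scale in each panel) in 3 JH and 3 LD livers (x axis). Symbols are single libraries, horizontal lines the breed means and error bars the SD, and the JH libraries lie below the LD libraries in PECAM1, VWF and KDR, the breeds overlap in the other panels, and JH2 (red triangle) is the lowest library in 7 of 9 panels.

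PECAM1 encodes CD31, the adhesion protein that endothelial cells carry at their contacts and that platelets and leukocytes also carry. The PECAM1 mRNA was 15.9, 15.2 and 16.1 RPKM in JH1, JH2 and JH3, against 27.1, 30.1 and 25.7 RPKM in LD1, LD2 and LD3. The 3 JH pigs were nearly alike, and the lowest LD pig was well above the highest JH pig. The mean in JH was 0.569 of the mean in LD. On the log2 scale this was -0.81 (standard error 0.22, 95% interval -1.30 to -0.32), which did not pass the threshold (adjusted p = 0.0988, limma with Benjamini-Hochberg adjustment). A two-sided exact permutation test of the breed means gave p = 0.1, the smallest value that 3 pigs against 3 allow.

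KDR encodes VEGF receptor 2, the main signalling receptor of VEGF in endothelium. Its mRNA reached 11.1, 8.56 and 10.17 RPKM in JH1, JH2 and JH3, compared with 17.99, 18.4 and 19.4 RPKM in LD1, LD2 and LD3. Every JH pig was far below every LD pig, and within each breed the values were close. As a ratio of mean RPKM in the deposited values, the difference was the widest of the 9 genes, with a mean in JH of 0.534 of the LD mean. Its log2 fold change of -0.91 (standard error 0.23, 95% interval -1.42 to -0.40) missed both limits of the call (adjusted p = 0.0811, limma with Benjamini-Hochberg adjustment). Under quantile normalization KDR passed the threshold at -1.03 (adjusted p = 0.0493, limma with Benjamini-Hochberg adjustment), and it was the only one of the 9 genes that did so under any of the alternatives run. PECAM1 in the same fit was at -0.94, short of the fold limit (adjusted p = 0.0411, limma with Benjamini-Hochberg adjustment). Over all alternatives run, adjusted p (limma with Benjamini-Hochberg adjustment) ranged from 0.0493 to 0.212 for KDR and from 0.0411 to 0.264 for PECAM1.

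VWF encodes von Willebrand factor, which endothelial cells store and release and which binds platelets. VWF mRNA was 1.22, 0.557 and 0.744 RPKM in JH1, JH2 and JH3 and 1.36, 1.35 and 1.25 RPKM in LD1, LD2 and LD3. JH1 was just below the lowest LD pig, and JH2 and JH3 were clearly lower. With 21 to 52 reads per library, VWF was the least covered of the 9 genes. The 95% interval of its log2 fold change of -0.66 reached from -1.52 to 0.20 and so included 0 (adjusted p = 0.406, limma with Benjamini-Hochberg adjustment). The value was -0.43 without JH2, -0.93 without JH1 and -0.35 with a pseudocount of 1.

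FLT1 encodes VEGF receptor 1, which binds VEGF tightly and signals weakly. FLT1 mRNA was 4.24, 1.89 and 3.11 RPKM in JH1, JH2 and JH3 and 3.07, 4.502 and 3.40 RPKM in LD1, LD2 and LD3. The breeds overlapped, since JH1 was above LD1 and LD3, and JH2 was the lowest of all libraries. FLT1 had a log2 fold change of -0.29 (95% interval -1.05 to 0.46), which was 0.01 without JH2, -0.56 without JH1 and -0.14 without LD2. KDR thus had separate breeds and FLT1 overlapping ones, although the difference between the 2 receptor genes was not tested.

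TEK encodes TIE2, the angiopoietin receptor. TEK mRNA was 7.61, 5.45 and 7.48 RPKM in JH1, JH2 and JH3 and 6.16, 5.99 and 6.63 RPKM in LD1, LD2 and LD3. JH1 and JH3 were above the LD pigs and JH2 was below them. TEK was the only one of the 9 genes with a positive log2 fold change, 0.11 (standard error 0.24, 95% interval -0.43 to 0.66), and its breeds differed by less than the JH pigs differed among themselves. Its log2 fold change was 0.03 without JH1 and 0.27 without JH2.

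The breeds overlapped in all 4 genes of sinusoidal receptors. STAB1 and STAB2 encode the stabilins, large scavenger receptors, and STAB2 is the main receptor that clears hyaluronan from the blood. STAB1 mRNA was 17.5, 8.61 and 11.7 RPKM in JH1, JH2 and JH3 and 11.5, 16.7 and 12.5 RPKM in LD1, LD2 and LD3. STAB2 mRNA was 10.8, 3.30 and 11.6 RPKM in JH1, JH2 and JH3 and 7.23, 11.8 and 13.5 RPKM in LD1, LD2 and LD3. Both genes had their lowest value in JH2, which for STAB2 was far below every other library. STAB1 had a log2 fold change of -0.15 (95% interval -0.84 to 0.55) and STAB2 of -0.48 (95% interval -1.55 to 0.58). Both turned direction without JH2, where STAB1 and STAB2 were at 0.10. STAB1 was also just above 0 without LD2, at 0.01. On the other side, STAB1 reached -0.41 without JH1 and STAB2 -0.80 without JH3.

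LYVE1, a hyaluronan receptor of lymphatic vessels that sinusoidal endothelium also carries, had another order of the JH libraries. LYVE1 mRNA was 13.1, 22.4 and 12.3 RPKM in JH1, JH2 and JH3 and 18.8, 16.8 and 14.4 RPKM in LD1, LD2 and LD3. Here JH2 was the highest of the 6 libraries and the other JH pigs were the lowest. CLEC4G mRNA was 213, 159 and 109 RPKM in JH1, JH2 and JH3 and 195, 180 and 135 RPKM in LD1, LD2 and LD3. The highest and the lowest CLEC4G values both came from JH pigs. LYVE1 had a log2 fold change of -0.11 (95% interval -0.76 to 0.54) and CLEC4G of -0.12 (95% interval -0.80 to 0.56). These directions were not stable, since LYVE1 turned to 0.004 without JH1 and 0.05 without JH3, and CLEC4G to 0.13 without JH3, while LYVE1 was at -0.38 without JH2 and CLEC4G at -0.35 without JH1. Over the 4 sinusoidal genes the median log2 fold change was -0.13, with -0.38 without JH1 and -0.02 without JH2. Over the 5 genes shared by endothelium in general (PECAM1, VWF, KDR, FLT1 and TEK) it was -0.66, the value of VWF, with -0.82 without JH1, -0.43 without JH2 and -0.35 with a pseudocount of 1. The difference between the 2 sets was not tested.

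**Figure D2:**
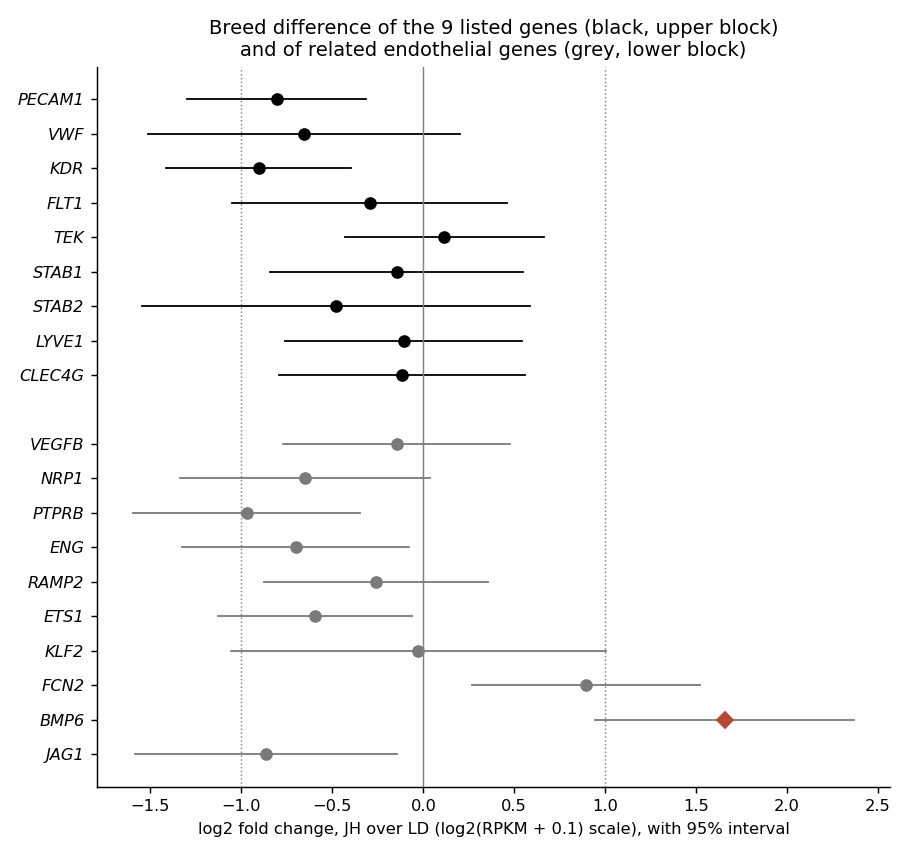
Log2 fold change of JH over LD (x axis, log2(RPKM + 0.1) scale) with its 95% interval from limma for the 9 genes (black) and for named genes of related endothelial lists (grey), with dotted lines at the fold limit and a red diamond for a called gene. The intervals of PECAM1 and KDR lie below 0, those of the other 7 genes include 0, and BMP6 is the called gene.

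Among the 9 genes, JH2 was most often the lowest library. It was the lowest of the 6 libraries in 7 of 9 genes (PECAM1, VWF, KDR, FLT1, TEK, STAB1 and STAB2), and in 13.2% of all tested genes. JH3 was the lowest in the other 2 genes, LYVE1 and CLEC4G, and no LD library was the lowest in any of the 9, while over all tested genes JH3 was the lowest library in 25.2% and LD3 in 30.2%. JH3 and LD3 also held the most 18S ribosomal RNA (RN18S), with 5991, 1570 and 62257 RPKM in JH1, JH2 and JH3 and 7309, 2108 and 20160 RPKM in LD1, LD2 and LD3, and its part in the values of the 9 genes was not tested. Without JH2, 5 of 9 genes kept a log2 fold change below 0, the median over the 9 genes was -0.14, and that over all tested genes was -0.02, whereas without JH1 these medians were -0.56 and -0.01. PECAM1 at -0.78 and KDR at -0.80 were nearly as far below 0 without JH2 as with it. Over the 6 lists of related endothelial genes described below, JH2 was the lowest library in 15 of 50 tested genes and JH3 in 16. Within these lists, JH2 was the lowest in 7 of 12 other sinusoidal genes. Among the other surface and junction genes it was the lowest in 0 of 14, and JH3 in 8. JH2 was the highest library in 6 of 7 lymphocyte genes and in 22.8% of all tested genes, and MS4A1, the seventh, was 0.918 RPKM in JH2 and highest in LD1 at 1.24 RPKM. Their summed level was 22.5, 83.0 and 22.9 RPKM in JH1, JH2 and JH3 and 31.8, 27.7 and 29.8 RPKM in LD1, LD2 and LD3, with 0 of 7 called, NKG7 of cytotoxic lymphocytes the most abundant and a median log2 fold change of 0.30 that turned to -0.05 without JH2 and was 0.53 without JH3. Among the macrophage genes JH2 was the highest library in 5 of 8 tested genes, but CD5L, at 173 RPKM in JH2, was below every LD library there. The summed level of the macrophage list was 873, 1875 and 863 RPKM in JH1, JH2 and JH3 and 1131, 1207 and 1276 RPKM in LD1, LD2 and LD3, of which C1QC was the most abundant, CD163 was listed at 0 in all libraries and 0 of 8 was called. The median log2 fold change of the 8 genes was 0.23, with 0.09 without JH2 and 0.41 without JH1 or LD3. The part of lymphocyte and macrophage RNA in the JH2 values of the 9 genes was not tested.

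Breed differences of all genes also moved with the length of the gene model that the RPKM values imply. For genes under 1000 bases the median log2 fold change was 0.12, for those of 5000 to 7000 bases it was -0.11, and for those over 7000 bases it was -0.25. KDR, with an implied length of 6012 bases, was far below the median of its class, and so was PECAM1 with 3486 bases, whose class of 3000 to 5000 bases had a median of -0.03. STAB1, the longest with 8232 bases, lay above the median of its class. After the length trend of each library was removed, an alternative chosen after the values were seen, the log2 fold change was -0.72 for KDR, -0.76 for PECAM1, -0.09 for FLT1 and 0.11 for STAB1. STAB1 thus turned its direction, PECAM1 was farther from 0 than KDR, and 0 of 9 genes was called. TEK was at 0.20, and the median of the 9 genes was -0.16, beside -0.29 before this removal.

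Ligands, partner receptors and other genes of the same pathways were read from lists, and the range after the median of a list covers all alternatives run. Over 6 lists of endothelial genes, 50 genes were tested, of which 1 was called higher in JH and 0 lower, beside 1.02% and 1.36% of all tested genes, with a median log2 fold change of -0.16 (-0.29 to 0.04) beside -0.29 for the 9 genes. Of the VEGF ligands and the other VEGF receptors, 0 of 6 was called and the median was -0.01 (-0.24 to 0.21). The most abundant of them was VEGFB, a ligand of FLT1, with 24.1 ± 6.07 RPKM (SD, n = 3) in JH and 26.4 ± 4.97 RPKM (SD, n = 3) in LD. NRP1, a coreceptor that acts together with KDR, was 6.91, 3.17 and 4.95 RPKM in JH1, JH2 and JH3 and 7.65, 7.33 and 7.69 RPKM in LD1, LD2 and LD3. Like KDR, NRP1 had no overlap between the breeds. Its log2 fold change of -0.65 did not pass the threshold (adjusted p = 0.306, limma with Benjamini-Hochberg adjustment). Without JH2 it was -0.36, where KDR was at -0.80. NRP1 was named for the smallest unadjusted p of its list. There the JH values all lay below the LD values in 1 of 6 tested genes, beside 12.5% of all tested genes. VEGFA, the main ligand of KDR, lay on the opposite side, with 25.1, 19.9 and 16.4 RPKM in JH1, JH2 and JH3 and 15.97, 15.2 and 9.77 RPKM in LD1, LD2 and LD3. Its log2 fold change of 0.59 did not pass the threshold (adjusted p = 0.318, limma with Benjamini-Hochberg adjustment) and was 0.37 without LD3. VEGFA rested on 45 to 90 reads a library. Its implied length of 582 bases falls in the class with a median log2 fold change of 0.12.

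Among the angiopoietins, TIE1 and VE-PTP, which bind TEK or act on it, 0 of 3 tested genes was called and the median log2 fold change was -0.97 (-1.05 to -0.60). TIE1, the relative of TEK, was at 0.303 RPKM in JH1 and listed at 0 in the other 5 libraries. PTPRB, which encodes VE-PTP, a phosphatase that restrains TEK and KDR signalling, was 3.03, 2.07 and 3.30 RPKM in JH1, JH2 and JH3 and 4.55, 5.82 and 6.23 RPKM in LD1, LD2 and LD3. As in KDR and unlike in TEK, the breeds did not overlap. The log2 fold change of -0.97 missed the threshold (adjusted p = 0.115, limma with Benjamini-Hochberg adjustment). PTPRB was named for the highest mean and the smallest unadjusted p of its list, and the latter favours genes without overlap. In this list the JH values all lay below the LD values in 2 of 3 tested genes, beside 12.5% of all tested genes.

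Of the other surface and junction genes that share the vessel wall with PECAM1, 0 of 14 was called, with a median log2 fold change of -0.20 (-0.30 to 0.001). RAMP2, part of the adrenomedullin receptor, was the most abundant and overlapped between the breeds. ENG, a coreceptor of transforming growth factor beta, was lower in each JH pig than in any LD pig, like PECAM1. Its level was 31.9 ± 7.83 RPKM (SD, n = 3) in JH and 51.5 ± 10.6 RPKM (SD, n = 3) in LD. ENG was not called (log2 fold change -0.70, adjusted p = 0.229, limma with Benjamini-Hochberg adjustment) and was named for the smallest unadjusted p of its list. There the JH values all lay below the LD values in 2 of 14 tested genes, beside 12.5% of all tested genes. The endothelial transcription factors gave 0 of 9 called and a median of -0.41 (-0.55 to -0.20), with KLF2, which responds to blood flow, overlapping between the breeds, and ETS1 at 5.60 ± 0.913 RPKM (SD, n = 3) in JH and 8.44 ± 0.357 RPKM (SD, n = 3) in LD. Of the Notch ligands, receptors and HEY targets 0 of 6 was called and the median was -0.28 (-0.48 to -0.15), and JAG1, a Notch ligand, was 2.25 ± 0.871 RPKM (SD, n = 3) in JH and 4.04 ± 0.597 RPKM (SD, n = 3) in LD.

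The other sinusoidal endothelial genes, which share their cells with STAB2 and CLEC4G, held the called gene. BMP6, a ligand that sinusoidal endothelium secretes and that makes hepatocytes express hepcidin, was 20.6, 9.57 and 11.2 RPKM in JH1, JH2 and JH3 and 3.69, 4.63 and 3.92 RPKM in LD1, LD2 and LD3. Every JH pig was above every LD pig, the opposite side from PECAM1, KDR and VWF. BMP6 was higher in JH by 1.66 in log2 fold change (standard error 0.32, adjusted p = 0.0356, limma with Benjamini-Hochberg adjustment). This call was lost when JH1, LD1, LD2 or LD3 was left out (adjusted p = 0.0714, 0.131, 0.0928 and 0.0911, limma with Benjamini-Hochberg adjustment) and with no filter on low values (adjusted p = 0.0548), while the log2 fold change without a library ranged from 1.33 to 1.88. FCN2, a ficolin that opsonizes microbes, was the most abundant of the list and not called, with 187 ± 36.2 RPKM (SD, n = 3) in JH and 102 ± 26.1 RPKM (SD, n = 3) in LD. In all, 1 of 12 tested genes was called and the median log2 fold change was 0.08 (-0.08 to 0.13), beside -0.13 for STAB1, STAB2, LYVE1 and CLEC4G.

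For hyaluronan, the substance that STAB2 and LYVE1 bind, 0 of 3 tested genes of synthesis, breakdown and CD44 was called, with a median log2 fold change of 0.37 (0.06 to 0.63). HYAL2, a hyaluronidase, was the most abundant and overlapped between the breeds, and CD44, a hyaluronan receptor of many cells, was 4.51 ± 1.11 RPKM (SD, n = 3) in JH and 7.54 ± 1.37 RPKM (SD, n = 3) in LD. Of the partners of VWF 0 of 2 tested genes was called, with a median of -0.44 (-0.53 to -0.25), and ADAMTS13, the protease that cleaves VWF, was 3.10 ± 0.709 RPKM (SD, n = 3) in JH and 4.91 ± 1.94 RPKM (SD, n = 3) in LD.

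A second readout of endothelial RNA came from the small RNA libraries of the same pigs. The miRNAs ssc-miR-126-3p and ssc-miR-126-5p are cut from an intron of EGFL7, a gene of endothelial cells. Their values are in RPM, which scales the reads of a miRNA to the clean reads of its library, and were compared with limma on log2(RPM + 0.5). By the same limits 9.54% of the 241 tested miRNAs were called, and the median log2 fold change of all was -0.30. The level of ssc-miR-126-3p was 13295, 6337 and 9520 RPM in JH1, JH2 and JH3 and 8423, 7526 and 7571 RPM in LD1, LD2 and LD3. That of ssc-miR-126-5p was 265, 127 and 214 RPM in JH1, JH2 and JH3 and 200, 201 and 210 RPM in LD1, LD2 and LD3. In both arms JH1 was the highest and JH2 the lowest library, and the LD pigs lay between them. JH2 was the lowest library in 47.7% of all tested miRNAs, beside 7 of the 9 mRNAs.

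Between the breeds, the log2 fold change was 0.25 (standard error 0.27) for ssc-miR-126-3p and -0.07 (standard error 0.28) for ssc-miR-126-5p, and 0 of these 2 miRNAs was called or reached an unadjusted p below 0.05 in limma. Both lay above the median of all tested miRNAs, and under quantile normalization and median scaling, which move that median to 0.06 and 0.09, ssc-miR-126-3p was at 0.76 and 0.64 and ssc-miR-126-5p turned to 0.33 and 0.32, with 0 of the 2 called. Without JH1 the values for ssc-miR-126-3p and ssc-miR-126-5p were -0.01 and -0.30, and without JH2 they were 0.52 and 0.23. EGFL7 mRNA was 30.6, 27.9 and 11.7 RPKM in JH1, JH2 and JH3 and 23.8, 29.6 and 15.2 RPKM in LD1, LD2 and LD3. Unlike miR-126, EGFL7 was not low in JH2, and its lowest values were in JH3 and LD3, as were those of CLEC4G. Over all tested genes, JH3 was the lowest library in 25.2% and LD3 in 30.2%.

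**Figure D3:**
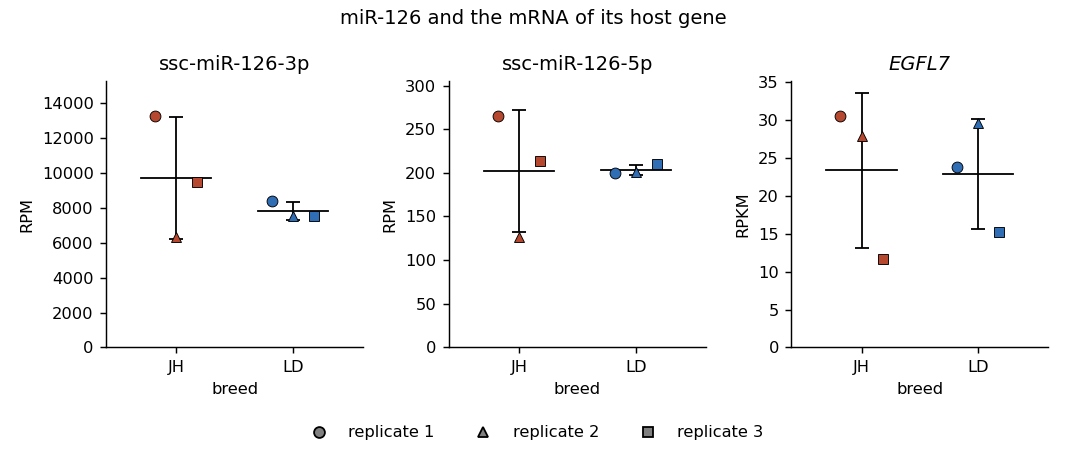
RPM of ssc-miR-126-3p and ssc-miR-126-5p and RPKM of EGFL7 (y axes, from 0) in 3 JH and 3 LD livers (x axes), with symbols for single libraries, horizontal lines for the breed means and error bars for the SD. JH2 is the lowest library for both miRNAs but not for EGFL7, and the breeds overlap in all panels.

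PECAM1 and VWF are also expressed in the platelet lineage. Of the 7 platelet genes, PPBP and PF4, which define platelets, were listed at 0 in all 6 libraries, and 2 genes were tested. ITGB3, an integrin of platelets that endothelium also carries, was the most abundant and was called lower in JH, in the direction of PECAM1, with 1.40 ± 0.374 RPKM (SD, n = 3) in JH and 7.48 ± 1.66 RPKM (SD, n = 3) in LD (log2 fold change -2.34, adjusted p = 0.00722, limma with Benjamini-Hochberg adjustment). The other tested platelet gene, the integrin ITGA2B, lay on the opposite side, at 2.199, 2.29 and 2.68 RPKM in JH1, JH2 and JH3 and 1.69, 1.90 and 1.22 RPKM in LD1, LD2 and LD3, and was not called (log2 fold change 0.56, adjusted p = 0.356, limma with Benjamini-Hochberg adjustment). The summed level of the list, most of it ITGB3 in LD, was 4.49, 4.18 and 4.68 RPKM in JH1, JH2 and JH3 and 9.91, 9.08 and 10.8 RPKM in LD1, LD2 and LD3, and its part in PECAM1 and VWF was not tested. LYVE1 is shared with lymphatic vessels, whose list had 0 of 3 tested genes called, a median log2 fold change of -0.24 (-0.46 to 0.04) and, as its most abundant gene, the chemokine CCL21, which overlapped between the breeds.

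The stellate and smooth muscle genes, whose cells lie against the sinusoidal endothelium, were below 0 in log2 fold change in 10 of 10 tested genes, with 4 called lower in JH, 0 higher, and a median of -1.41 (-1.76 to -1.17). Over all tested genes 47.1% were below 0 and 1.36% were called lower. Their summed level was 104, 112 and 91.9 RPKM in JH1, JH2 and JH3 and 367, 434 and 214 RPKM in LD1, LD2 and LD3, with COL3A1 the most abundant and MYH11 listed at 0 in all libraries. This breed difference was in the direction of PECAM1 and KDR, its median was farther from 0 than either gene, and its part in their values was not tested.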

How the data were processed

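Liver mRNA and small RNA were measured in 3 JH and 3 LD pigs, grouped by their labels. The authors aligned single mRNA reads to the pig genome with Tophat v2.0.13, counted them per gene with gfold and deposited RPKM. For miRNA the authors deposited RPM, relative to clean reads. Breeds were compared with the lmFit and eBayes functions of limma 3.58.1 in R 4.3.3, with a variance trend, on log2(RPKM + 0.1) and log2(RPM + 0.5), for genes of 0.5 RPKM and miRNAs of 1 RPM or more in 3 or more libraries. Benjamini-Hochberg adjustment covered all tested genes or miRNAs. A call needed an adjusted p below 0.05 and more than 1 in absolute log2 fold change. Reads and gene lengths were recovered from the RPKM for 12884 of 12991 tested genes (99.2%). A symbol with 2 rows was left out. The fits and the read recovery were tested on simulated data. Python 3.11.15 with scipy 1.17.1, numpy 2.4.6 and pandas 2.3.3 made the tables, and matplotlib 3.10.9 the plots.

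The 9 genes and the lists were chosen with earlier results of these data known. Named genes are all 9, from each pathway list the called genes, the gene of highest mean and the gene of smallest unadjusted p, and from each list of another cell type the called genes and the gene of highest mean. TIE1, VEGFA, EGFL7, ITGA2B, RN18S, APOA1, APOB, MS4A1, CD5L, CD163, MYH11, PPBP and PF4 are named outside this rule, after their values were seen. Alternatives were other pseudocounts, no filter, quantile normalization, median scaling, no fold limit, the replicate number as a block and each library left out. Voom on recovered reads and removal of the length trend (loess on log2 length) were added after the values were seen.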

Additional observations from a re-analysis of the deposited data

How the results depend on the processing

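Of 126 fold changes of the 9 genes recomputed under the alternatives, 117 kept their direction and their side of the threshold, 8 turned direction and 1, KDR under quantile normalization, passed the threshold, so that 1 of the 9 genes was called there and 0 under the others run. The number of genes called, 310, was 199 with a pseudocount of 0.01 and 200 with no filter, and ranged from 79 to 406 when a library was left out. In log2 fold change, leaving out a library gave ranges of -0.56 to 0.00813 for FLT1, -0.41 to 0.10 for STAB1, -0.80 to 0.10 for STAB2, -0.38 to 0.0503 for LYVE1, -0.35 to 0.13 for CLEC4G, -0.32 to 0.0574 for VEGFB, -0.52 to 0.38 for KLF2, -0.35 to 0.33 for C1QC, -0.57 to 0.54 for NKG7, -0.0115 to 0.52 for ssc-miR-126-3p, -0.30 to 0.23 for ssc-miR-126-5p and -0.25 to 0.21 for ssc-miR-122. With the length trend removed STAB1 was at 0.11. Under quantile normalization C1QC was at -0.0509 and ssc-miR-126-5p at 0.33, and under median scaling ssc-miR-126-5p was at 0.32 and ssc-miR-142-5p at 0.16. The number of miRNAs called, 23 (2 higher and 21 lower in JH), was 14 with a pseudocount of 5, 5 under quantile normalization (1 higher and 4 lower), 7 under median scaling (3 higher and 4 lower), and 9 to 23 when a library was left out. The causes of these changes were not tested.

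With the replicate block in the limma model, 253 genes, 0 of the 9 genes and 16 miRNAs were called. BMP6 (adjusted p = 0.0554), LRAT (0.0640) and HBB (0.0526) were not called in it, by limma with Benjamini-Hochberg adjustment. Each library was also taken relative to its breed mean. Across genes, JH and LD libraries of the same number correlated at -0.02, 0.05 and 0.18 in mRNA. In miRNA they correlated at -0.07, -0.32 and -0.09. The best match of JH3 in mRNA was LD3, while all other best matches, in mRNA and miRNA, had another number. Such correlations with 3 pigs a breed cannot tell whether pigs were matched, and the labels state no pairing.

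With 3 pigs a breed an exact test cannot go below 0.1. VWF rests on 21 to 52 reads a library. FLT1, STAB1 and STAB2 turn direction without JH2, and STAB1 also without LD2 and with the length trend removed. Implied gene lengths come from the values, not from an annotation.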

Other observations

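The called stellate and smooth muscle genes were COL1A1, called in all 6 fits that left out a library, COL3A1, called in 4 of these, COL1A2, called in 2, and LRAT, the retinol esterifying enzyme of stellate cells, called in 1 and short of the fold limit at -0.94 with a pseudocount of 1. COL1A1 was 4.70, 7.93 and 6.81 RPKM in JH1, JH2 and JH3 and 31.7, 89.7 and 29.4 RPKM in LD1, LD2 and LD3, with a log2 fold change of -2.77 that was -2.25 without LD2. The smooth muscle miRNA ssc-miR-145-5p was also called lower in JH (log2 fold change -1.15, adjusted p = 0.0118, limma with Benjamini-Hochberg adjustment), a call that was lost without LD1 (-1.03, adjusted p = 0.0541) or LD3 (-1.14, adjusted p = 0.0534), where the value stayed beyond the fold limit, and under quantile normalization (-0.68, adjusted p = 0.0908) and median scaling (-0.75, adjusted p = 0.0728), where it did not, and ssc-miR-143-3p at -0.72 (-0.96 to -0.32 over the alternatives) was not called.

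The bile duct list had 1 of 2 tested genes called lower in JH, EPCAM at -1.55, and the erythroid list 1 of 2, the beta globin HBB at -1.39, and each of these calls held in 1 of the 6 fits that left out a library. By limma with Benjamini-Hochberg adjustment, COL1A2 (adjusted p = 0.0652), LRAT (0.0632), EPCAM (0.0592) and HBB (0.0673) were also not called with no filter on low values, COL1A2 (0.0553) and HBB (0.0560) with a pseudocount of 0.01, and LRAT (0.0525) with the length trend removed. In log2 fold change, with the range over the alternatives, the hepatocyte miRNA ssc-miR-122 was at 0.01 (-0.25 to 0.41), the leukocyte miRNAs ssc-miR-142-3p at 0.36 (0.12 to 0.75) and ssc-miR-142-5p at -0.23 (-0.31 to 0.16), and the lymphocyte miRNA ssc-miR-150 at -0.51 (-0.59 to -0.11). The erythroid miRNA ssc-miR-451 was at 0.61, with 0.32 without JH1, 0.89 without JH2, 0.96 under quantile normalization and 1.00 under median scaling. The erythroid miRNA ssc-miR-144 was at 0.69, with 0.18 without JH1 and 1.09 without JH2. By limma, 0 of these 6 miRNAs was called and 1, ssc-miR-150, was at an unadjusted p below 0.05.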
